A study of Rattus norvegicus with 48 samples.

Results

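The addition of amlexanox to cultures that had also received Tat and cocaine was analysed by RNA-seq in mixed rat cortical cultures, in 6 of the 48 libraries of the series. The 6 libraries were chosen by their labels, 3 of cultures given Tat, cocaine and amlexanox (Tat-Cocaine-Amlexanox) and 3 of cultures given Tat and cocaine without it (Tat-Cocaine). The cultures were mixed neuronal cultures of the cortex of Sprague-Dawley rat fetuses aged 18 days and were used on day 21 in vitro. Both groups received HIV-1 Tat at 6 ng/mL for 48 h and cocaine at 25 µM for 24 h, so that the controls of the comparison carry both agents too. Amlexanox was given at 25 µM for 48 h. The other cultures used here, with 3 libraries each, were untreated (Control), given amlexanox alone (Amlexanox), given Tat alone (Tat) or given Tat with amlexanox (Tat-Amlexanox), at the same doses and times. The labels number the 3 libraries of a group and do not say whether they came from separate dissections, and p-values therefore measure the spread between these libraries.

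Tat, the viral transactivator of HIV-1 transcription, is released from infected cells and acts on neurons and glia, and cocaine blocks the reuptake of monoamines. Amlexanox is an anti-inflammatory small molecule that inhibits the kinases TBK1 and IKK-epsilon (gene Ikbke), which phosphorylate the factor Irf3 downstream of nucleic acid and Toll-like receptor sensing and so drive type I interferon genes. It is also known to inhibit phosphodiesterases, the enzymes that degrade cyclic AMP and cyclic GMP, and to bind the calcium-binding protein S100a13.

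Expression was measured as CPM, the reads of a gene relative to the size of its library, after TMM scaling between libraries. The 6 libraries held 22.8 to 26.8 M reads on genes (17.5 to 29.1 M over the 48), so that 0.5 CPM, the filter on low values, corresponds to 11.5 to 13.2 reads. Although the labels call the cells neurons, glial genes were abundant: the astrocyte filament gene Gfap stood at 2751 to 4832 CPM and the microglial calcium-binding gene Aif1 at 91.6 to 229.5 CPM in the 6 libraries, beside 395 to 490 CPM of the neuronal gene Map2. Tat-Cocaine replicate 3 stood apart from its group. Whether its label is right could not be checked, and each Tat-Cocaine value is to be read with that doubt. The SD over genes of its log2 difference was 0.511 to Tat-Cocaine replicate 1 and 0.447 to replicate 2, but 0.256 to 0.320 to the 3 libraries with amlexanox. The other pair of Tat-Cocaine libraries differed from each other by 0.324, and from the libraries with amlexanox by 0.480 to 0.572. On the first principal component, which held 61.6% of the variance, Tat-Cocaine replicates 1 and 2 had scores of −42.2 and −33.7, replicate 3 a score of 13.5, and the libraries with amlexanox scores of 14.4 to 25.1. Counts that use it are therefore also given without it. Tat-Cocaine replicate 3 was singled out after these values were seen, and it lies nearest to the libraries with amlexanox. Leaving it out therefore tends to widen the difference between the groups, and passing only without it is no independent support for a change.

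**Figure D1:**
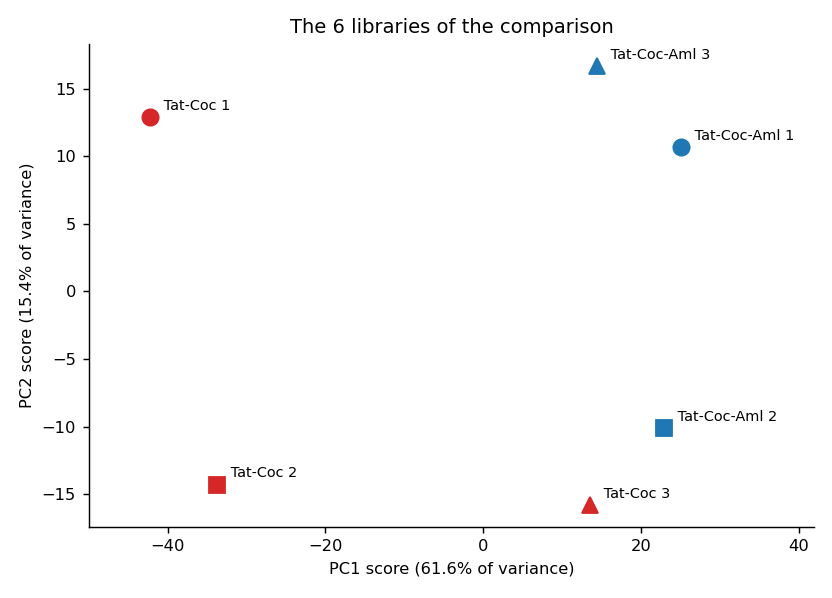
First (x axis) and second (y axis) principal component scores of the 3 Tat-Cocaine (red) and 3 Tat-Cocaine-Amlexanox (blue) libraries, with the replicate number beside each point. Tat-Cocaine replicate 3 has a PC1 score of 13.5, next to the 14.4 of the nearest library with amlexanox, and the other Tat-Cocaine libraries lie at −42.2 and −33.7.

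With amlexanox Nptx1, Ccl19 and Alpl were called lower and Cyp1a1 and LOC24906 higher, each described below. Nptx1 passed in all 6 fits with a library left out, Alpl in 3, and Ccl19, Cyp1a1 and LOC24906 in 2 each. Of 15890 genes tested, 147 (0.925%) had an FDR under 0.05 in limma, 55 higher (0.346%) and 92 lower (0.579%) with amlexanox, and 2829 had an unadjusted p under 0.05. The median absolute log2 fold change of the 147 was 0.77. Without overlap between the libraries of both groups, 1749 genes (11%) were higher and 1765 (11.1%) lower. In 130 of the 147 called genes, Tat-Cocaine replicate 3 was the library of its group nearest to the amlexanox mean (88.4%, against 60.2% of all genes tested). Without Tat-Cocaine replicate 3, 1317 of 15889 genes tested were called, 792 higher and 525 lower, among them all 147. List counts given without that library are to be read beside these.

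The calls rest on a spread that limma estimated from all 16 groups of the series. In a fit to the 6 libraries alone 0 genes had an FDR under 0.05 (2714 at an unadjusted p under 0.05). Leaving out any of 4 other libraries also lowered the count by over 1.5 times, to 7 and 15 on omitting Tat-Cocaine-Amlexanox replicate 1 or 3, and to 12 and 5 on omitting Tat-Cocaine replicate 1 or 2. It was 135 without Tat-Cocaine-Amlexanox replicate 2. None of the 147 had the opposite sign when a library was left out, although 2 fell under the filter on low values in such a fit. In genes without overlap between groups, leaving out 1 library cannot turn the sign. Among called genes with a mean of at least 1 CPM in a group, 53 rises and 81 falls were without overlap. The kept signs are therefore no support for the calls. Of the 147, 43 passed in 1 of the 6 fits with a library left out, 85 in 2, 10 in 3, 3 in 4, 2 in 5 and 4 in all 6.

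**Figure D2:**
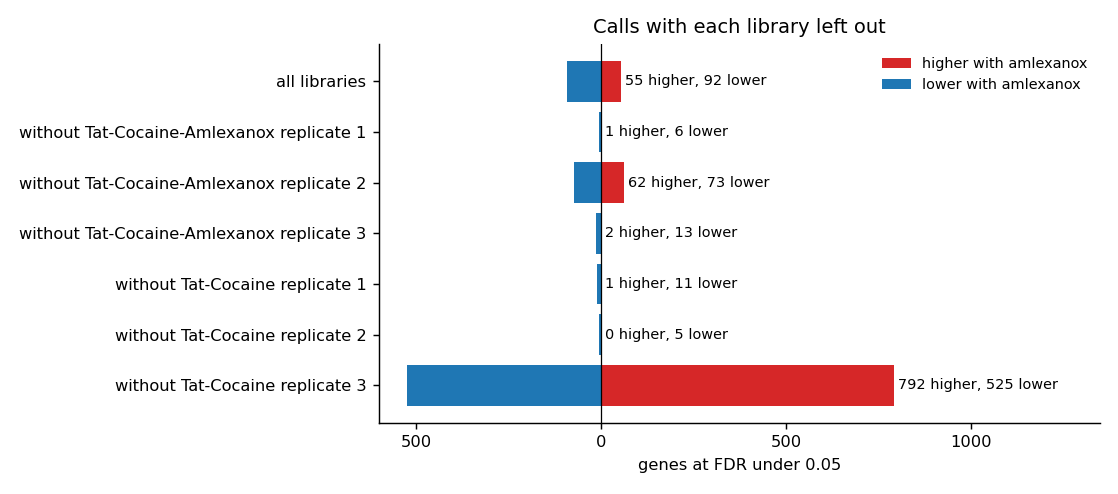
Genes at an FDR under 0.05 in limma (x axis, counts to the right higher and to the left lower with amlexanox) with all libraries and with each of the 6 libraries left out. The count is 55 higher and 92 lower with all libraries and 792 higher and 525 lower without Tat-Cocaine replicate 3.

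The 4 genes that passed in all 6 of those fits were lower with amlexanox. They are Nptx1, which encodes neuronal pentraxin 1, a secreted protein that gathers AMPA receptors at synapses, Has1, a hyaluronan synthase, Abi3bp, a protein of the extracellular matrix, and Gucy2g, a receptor guanylyl cyclase. Has1, Abi3bp and Gucy2g were picked after their values were seen. Nptx1 measured 76.9, 70.7 and 40.99 CPM in the Tat-Cocaine libraries and 10.1, 17.4 and 13.6 CPM with amlexanox. The groups did not overlap, and the lowest Tat-Cocaine value was again that of replicate 3. The log2 fold change of Nptx1 was −2.14 (SE 0.31, limma FDR 0.000497), which leaves 22.7% of the Tat-Cocaine level on the scale of CPM + 0.5. Without Tat-Cocaine replicate 3 it was −2.42, and over the 6 fits with a library left out it lay between −2.42 and −1.95.

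Has1 measured 1.32, 2.09 and 1.33 CPM in Tat-Cocaine and 0.218, 0.0816 and 0.228 CPM in Tat-Cocaine-Amlexanox cultures (log2 fold change −1.61, SE 0.24, limma FDR 0.000497). Abi3bp measured 9.20, 10.2 and 7.13 CPM in Tat-Cocaine and 2.66, 3.796 and 2.09 CPM with amlexanox (−1.50, SE 0.23, limma FDR 0.000497). For both genes every library with amlexanox was below every library without it. Gucy2g is a gene with few reads, at 0.724, 1.19 and 0.684 CPM in Tat-Cocaine and 0, 0.245 and 0.0760 CPM with amlexanox (−1.17, SE 0.17, limma FDR 0.000497). Has1 and Abi3bp were also the calls that remained in a fit to the 6 groups with and without amlexanox, with limma FDRs of 0.0333 and 0.0335.

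The largest fall among called genes with at least 1 CPM in a group was Ccl19, a chemokine that binds the receptor CCR7 of dendritic cells and lymphocytes. Ccl19 measured 19.3, 84.7 and 9.94 CPM in Tat-Cocaine and 2.05, 3.31 and 2.17 CPM with amlexanox (log2 fold change −3.14, SE 0.75, limma FDR 0.0371). The Tat-Cocaine libraries of Ccl19 thus spread widely, yet each was above each library with amlexanox. Alpl, the tissue-nonspecific alkaline phosphatase, went from 8.26, 15.6 and 5.88 CPM to 1.70, 3.47 and 1.79 CPM (−1.83, SE 0.35, limma FDR 0.0110). Ptgir, the prostacyclin receptor, went from 8.26, 17.6 and 6.36 CPM to 2.31, 3.43 and 2.13 CPM (−1.74, limma FDR 0.0436). Msln, the cell surface protein mesothelin, was scarce in both groups, at 0.681, 4.63 and 2.01 CPM against 0.348, 0.571 and 0.0380 CPM (−1.65, limma FDR 0.0347).

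The others of the 12 largest falls follow, again among called genes that met the naming rule. Esm1 (log2 fold change −2.1) was called but did not meet that rule. Islr2, a membrane protein with leucine-rich repeats known from axon guidance, measured 38.8, 31.2 and 12.5 CPM in Tat-Cocaine and 6.401, 5.90 and 6.54 CPM with amlexanox (log2 fold change −1.90, SE 0.41, limma FDR 0.0208). Cntn2, an axonal adhesion molecule, measured 32.8, 27.3 and 18.6 CPM against 5.49, 7.63 and 10.1 CPM (−1.70, SE 0.34, limma FDR 0.0137). Cbln1, a secreted organizer of synapses, fell from 13.6, 13.3 and 5.84 CPM to 2.35, 3.02 and 3.57 CPM (−1.64, limma FDR 0.0293). In each of these genes Tat-Cocaine replicate 3 was the lowest library of its group and, as the naming required, above those with amlexanox. Otof, the calcium sensor otoferlin of vesicle fusion, fell from 6.60, 7.57 and 3.02 CPM to 0.915, 1.47 and 0.760 CPM (−1.95, SE 0.34, limma FDR 0.00495) and passed in 5 of the 6 fits with a library left out. The atypical cadherin Fat2 (−2.30, limma FDR 0.0347), the protease granzyme M, Gzmm (−1.99, limma FDR 0.0425), and the unnamed locus AABR07068316.1 (−2.09, limma FDR 0.0293) complete the 12.

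The largest rise was at LOC24906, whose number is that of the RefSeq gene Lypd8l1, of the Ly6 and PLAUR domain family. It measured 0.298, 0.860 and 1.89 CPM in Tat-Cocaine and 9.45, 4.61 and 5.21 CPM in Tat-Cocaine-Amlexanox cultures (log2 fold change 2.27, SE 0.49, limma FDR 0.0237). Next came Cyp1a1, a cytochrome P450 enzyme and the best known target gene of the aryl hydrocarbon receptor. Cyp1a1 measured 3.58, 0.982 and 6.00 CPM in Tat-Cocaine and 14.3, 9.18 and 16.4 CPM with amlexanox (1.98, SE 0.48, limma FDR 0.0408), 3.95-fold on the scale of CPM + 0.5. In both genes each library with amlexanox was above each library without it, as the naming of the largest rises required. The limma FDR of Cyp1a1 lay between 0.00625 and 0.361 when a library was left out, and that of LOC24906 between 0.00503 and 0.231.

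Ogfrl1, abundant in both groups, rose from 166, 168 and 261 CPM to 434, 374 and 392 CPM (log2 fold change 1.04, SE 0.20, limma FDR 0.0107). Hps3, a subunit of a complex that builds lysosome-related organelles, measured 34.2, 34.9 and 98.0 CPM in Tat-Cocaine and 129, 105 and 119 CPM with amlexanox (1.25, SE 0.30, limma FDR 0.0371). Here the value of Tat-Cocaine replicate 3 was close to those with amlexanox, and without that library the log2 fold change was 1.75. Dipk2a, a kinase-like protein of the secretory pathway, rose from 47.1, 43.6 and 76.1 CPM to 117, 99.0 and 103 CPM (0.97, limma FDR 0.0137). Cyp39a1, an oxysterol hydroxylase, rose from 10.3, 9.99 and 11.3 CPM to 21.7, 18.5 and 20.7 CPM (0.92, SE 0.21, limma FDR 0.0312), with narrow spread in both groups. Plekhg6 (0.83, limma FDR 0.0371), the hyaluronan synthase Has3 (0.83, limma FDR 0.0293) and Rprm, a cell cycle arrest gene (0.77, limma FDR 0.0442), also rose. Has3 thus moved the opposite way to Has1, from 1.15, 1.00 and 1.53 CPM to 2.48, 2.25 and 2.93 CPM. Eddm3b (1.27, limma FDR 0.0371), the linker histone gene H1f6 (1.02, limma FDR 0.0208) and the locus AABR07058124.4 (0.68, limma FDR 0.0462) were at 4.07 CPM or less in each of the 6 libraries. Histone genes have near-identical copies, and the value of H1f6 is uncertain to that extent.

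**Figure D3:**
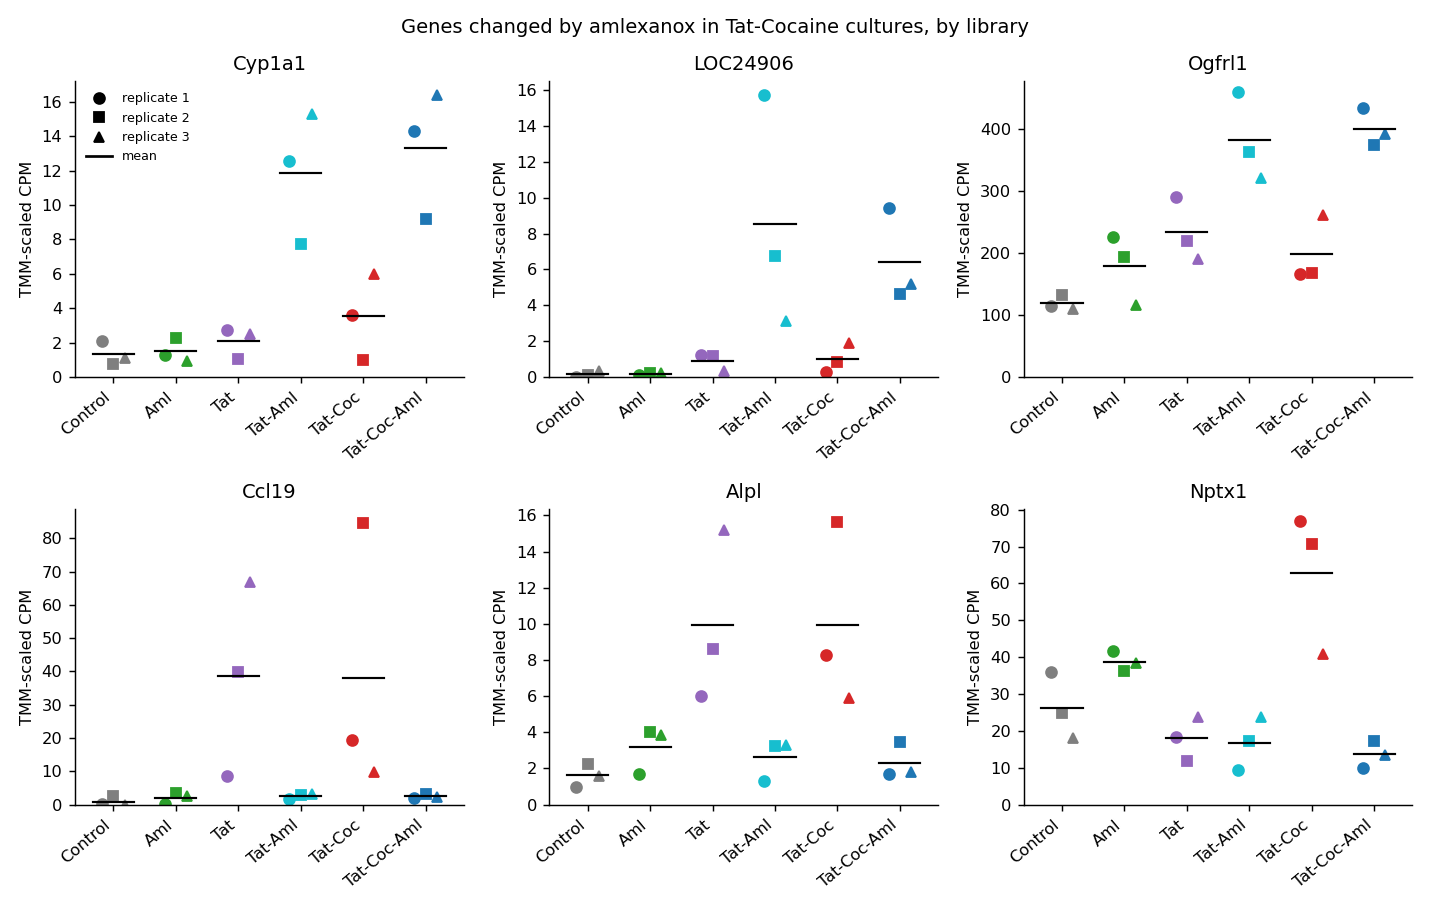
TMM-scaled CPM (y axes, from 0) of 6 genes in each library of the 6 groups with and without amlexanox (Aml) and cocaine (Coc), with 1 marker shape per replicate number and the group mean as a line. Cyp1a1 is at 9.18 to 16.4 CPM in Tat-Coc-Aml against 0.982 to 6.00 CPM in Tat-Coc libraries, and Nptx1 at 10.1 to 17.4 against 40.99 to 76.9 CPM.

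Amlexanox was also added to Tat without cocaine, in 6 libraries that share none with the comparison above. There 133 genes (0.837%) were called, 64 higher and 69 lower (115 and 67 after quantile normalization). Without Tat-Amlexanox replicate 1 the count was 0, without Tat-Amlexanox replicate 3 it was 22, without Tat replicate 2 it was 1 (SNORD28) and without Tat replicate 3 it was 14. Of the 147 genes called in Tat-Cocaine cultures, 139 (94.6%) had the same sign there, the 55 rises without exception and 84 of the 92 falls, beside 64.2% of all genes tested. Of the 147, 21 were called in both comparisons (14.3% of the 147 and 15.8% of the 133), in the same direction each time. The Pearson correlation of both log2 fold changes across the 15890 genes, which are not independent of each other, was 0.48.

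The 21 genes include LOC24906, Cyp1a1, Ccl19 and Alpl. LOC24906 measured 1.22, 1.15 and 0.331 CPM in Tat and 15.7, 6.73 and 3.10 CPM in Tat-Amlexanox cultures (log2 fold change 2.50, limma FDR 0.0190). Cyp1a1 measured 2.74, 1.06 and 2.51 CPM in Tat and 12.6, 7.75 and 15.3 CPM in Tat-Amlexanox cultures (2.27, limma FDR 0.0217). Ccl19 fell from 8.72, 39.9 and 67.0 CPM to 1.73, 2.88 and 3.05 CPM (−3.29, limma FDR 0.0276), and Alpl from 6.03, 8.598 and 15.2 CPM to 1.28, 3.24 and 3.31 CPM (−1.73, limma FDR 0.0202). For these 4 genes the libraries with and without amlexanox were apart in Tat cultures too. In Tat-Cocaine cultures this was required for naming them. Msln, Abi3bp and Plekhg6 were among the 21 too, with log2 fold changes of −1.78, −0.94 and 0.85 in Tat cultures.

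The promoters of 3 genes that moved in both sets of libraries are shown. They are the 250 bases before the gene start in RefSeq (build GRCr8). The region of LOC24906 (Lypd8l1) is chr10:43115729-43115978 on the + strand, that of Ccl19 chr5:61761165-61761414 on the − strand and that of Alpl chr5:155289786-155290035 on the − strand. They are printed 5′ to 3′ on the strand of the gene, with capitals where a searched motif matched on either strand.
LOC24906: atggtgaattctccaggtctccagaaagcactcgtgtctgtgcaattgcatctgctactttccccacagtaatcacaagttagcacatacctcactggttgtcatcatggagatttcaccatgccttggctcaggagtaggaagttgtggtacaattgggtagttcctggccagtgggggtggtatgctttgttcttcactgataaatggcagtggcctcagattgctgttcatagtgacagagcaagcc
Ccl19: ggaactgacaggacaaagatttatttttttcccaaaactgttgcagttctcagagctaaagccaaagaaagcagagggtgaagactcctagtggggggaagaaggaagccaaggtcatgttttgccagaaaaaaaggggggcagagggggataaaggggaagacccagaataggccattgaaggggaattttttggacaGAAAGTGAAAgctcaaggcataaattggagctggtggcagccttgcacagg
Alpl: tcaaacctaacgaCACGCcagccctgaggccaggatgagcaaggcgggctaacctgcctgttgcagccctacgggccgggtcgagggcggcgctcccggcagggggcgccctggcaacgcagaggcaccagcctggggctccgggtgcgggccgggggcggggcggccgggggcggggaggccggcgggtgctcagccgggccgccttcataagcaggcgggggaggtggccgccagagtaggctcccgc

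The motifs searched were GCGTG for the aryl hydrocarbon receptor, GAAANNGAAA for interferon-regulated factors, GGGNNTTTCC for NF-kB and TGACGTCA for CREB, which do not overlap each other in these windows. The Ccl19 window holds 1 match of GAAANNGAAA, the Alpl window 1 match of GCGTG, on the opposite strand, and the LOC24906 window none of the 4. GCGTG was in 20 of the 41 matched promoters of called rises (48.8%) and in 18 of the 60 of called falls (30%), beside 43% of the 11371 matched promoters of genes tested and 25.9% of all 33469. GAAANNGAAA was in 1 rise (2.44%) and 3 falls (5%), beside 2.61% of promoters of genes tested and 3.41% of all. TGACGTCA was in none of the rises and 4 of the falls (6.67%), beside 2.81% of promoters of genes tested and 1.59% of all. GGGNNTTTCC was in none of the rises and 1 fall (1.67%), beside 1.57% and 1.3%. Promoters of Cyp1a1 and Nptx1 are not shown.

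**Figure D4:**
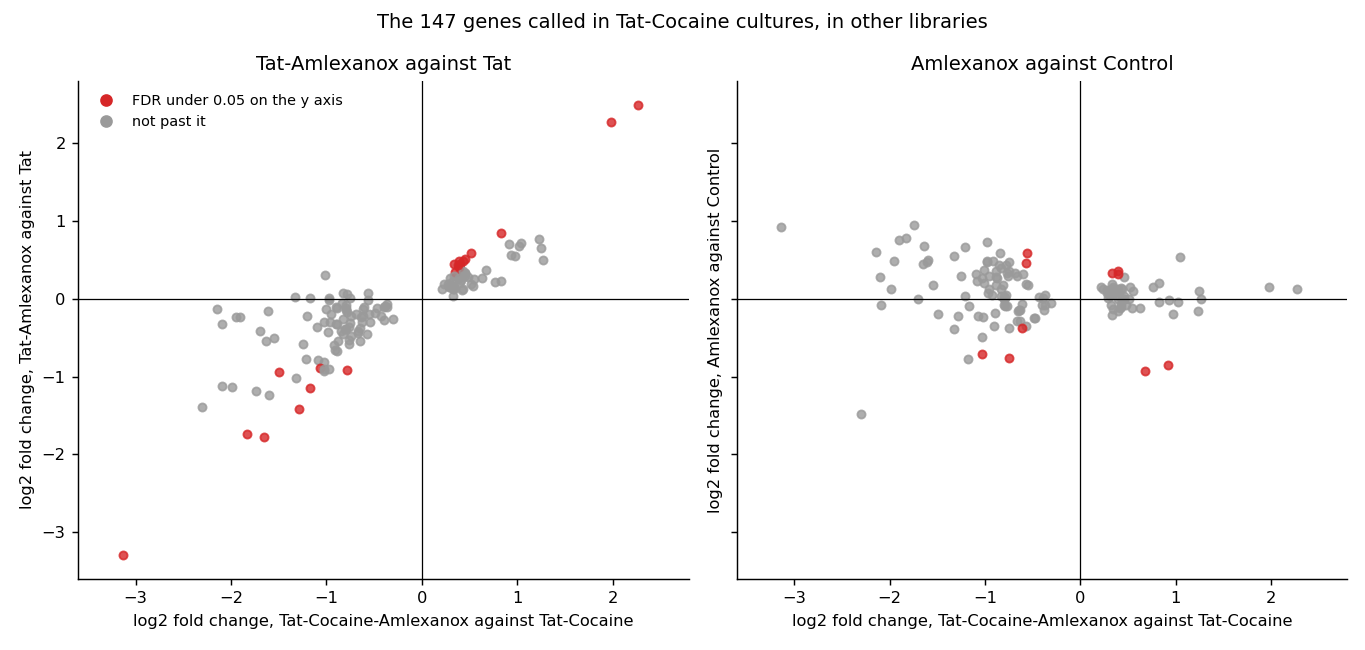
Log2 fold changes of the 147 genes called in Tat-Cocaine cultures (x axes), against those of the same genes for Tat-Amlexanox against Tat (left) and Amlexanox against Control (right), with genes past an FDR of 0.05 on the y axis in red. On the left 139 genes have the same sign on both axes and 21 are red, and on the right 67 have the same sign and 10 are red.

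Whether the amlexanox effect differed between Tat-Cocaine and Tat cultures was tested as an interaction contrast in limma. It called 0 of 15890 genes (0%), with 587 at an unadjusted p under 0.05. For Cyp1a1 the difference of the effects was −0.29 on the log2 scale (95% interval −1.67 to 1.10), for LOC24906 −0.23 (−1.65 to 1.19), for Ccl19 0.16 (−1.99 to 2.30) and for Alpl −0.10 (−1.12 to 0.92). Nptx1 measured 18.4, 11.8 and 23.7 CPM in Tat and 9.46, 17.3 and 23.8 CPM in Tat-Amlexanox cultures (log2 fold change −0.13, limma FDR 0.920), and its interaction was −2.01 (95% interval −2.90 to −1.12, unadjusted limma p 5.71e-05), which did not pass the adjustment over all genes. Tat-Cocaine replicates 1 and 2 had the highest Nptx1 of the 6 groups, while replicate 3 at 40.99 CPM was near the Amlexanox libraries at 41.7, 36.1 and 38.4 CPM. Without Tat-Cocaine replicate 3 the interaction called 1 gene, Fsd1l (−0.84, limma FDR 0.0446), picked after its value was seen.

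Amlexanox was also given alone, to cultures that share no library with the comparison. Against Control 1804 genes (11.4%) were called, 596 higher and 1208 lower. Of the 147 genes 67 (45.6%) had the same sign there, beside 39.5% of all genes tested, and 6 were called in the same and 4 in the opposite direction. The 2 rises among these 4 were Cyp39a1 (−0.85 with amlexanox alone, limma FDR 0.00742) and AABR07058124.4 (−0.93, limma FDR 0.000906). Cyp1a1 was at 2.11, 0.735 and 1.09 CPM in Control and 1.25, 2.29 and 0.939 CPM in Amlexanox cultures, and LOC24906 at 0.318 CPM or less in each of these 6 libraries. Each of these values is below the lowest with Tat, cocaine and amlexanox. The interaction contrast of the amlexanox effect between Tat-Cocaine and untreated cultures called 1481 genes (9.32%), 1025 with a higher and 456 with a lower effect in Tat-Cocaine cultures. LOC24906 was among them (difference 2.14, SE 0.70, limma FDR 0.0476) and Cyp1a1 was not (1.83, SE 0.68, limma FDR 0.0792). Ccl19 (−4.06), Nptx1 (−2.74) and Alpl (−2.61) were called with a lower effect. This count rests on single libraries of the untreated side as well: it was 36 without Amlexanox replicate 3 and 169 without Control replicate 3, but 2946 without Amlexanox replicate 1. On omitting Tat-Cocaine replicate 3 it was 2837.

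Of the genes with the largest such differences, Ltbp2, a matrix protein that binds latent TGF-beta complexes, measured 144, 211 and 378 CPM in Control and 81.3, 12.8 and 5.88 CPM in Amlexanox cultures, against 40.1 to 74.6 CPM in Tat-Cocaine and 49.3 to 54.4 CPM in Tat-Cocaine-Amlexanox cultures (difference 3.51, limma FDR 0.00821). Ccno, a cyclin of multiciliated cells, Dnah6, a dynein of motile cilia, Sult1a1, a sulfotransferase, and Bbox1, an enzyme of carnitine synthesis, had differences of 3.47 to 4.15. These 5 genes fell with amlexanox alone (limma FDR 0.0334 or less) and were not called in Tat-Cocaine cultures. The small leucine-rich proteoglycans Dcn and Lum, with Mgp and the locus listed as Mir675, had differences of −2.93 to −5.99. Lum measured 2.21, 7.12 and 1.13 CPM in Tat-Cocaine and 0.174, 0.286 and 0.570 CPM with amlexanox, a log2 fold change of −1.96 that missed the threshold (limma FDR 0.0537), as did that of Dcn (−1.84, limma FDR 0.0706).

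The levels with Tat and cocaine were also set against untreated cultures. Against Control 2372 genes (14.9%) were called in Tat-Cocaine cultures, 1371 higher and 1001 lower (844 and 742 without Tat-Cocaine replicate 3). This comparison shares the Tat-Cocaine libraries with that of amlexanox, and values are therefore only set side by side. Ccl19 had a log2 fold change of 4.67 with Tat and cocaine and −3.14 on adding amlexanox, Ptgir of 3.85 and −1.74, Alpl of 2.24 and −1.83, Msln of 2.15 and −1.65, and Nptx1 of 1.24 and −2.14. These were opposite in sign, which was not so for each called gene. Ogfrl1 had 0.71 (limma FDR 0.0120) and 1.04, and Cyp1a1 0.98 (limma FDR 0.177) and 1.98. Gzmm had −0.07 (limma FDR 0.941) and −1.99, and Cbln1 0.29 (limma FDR 0.648) and −1.64. The 2.51 CPM of Ccl19 with Tat, cocaine and amlexanox (mean, SD 0.69) compare with 0 to 2.60 CPM in Control libraries. Nptx1 with Tat, cocaine and amlexanox was lower than in each Control library, which measured 18.2 to 36.04 CPM.

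The genes of the known amlexanox targets and their pathway were tested as lists, chosen with earlier results of these data known. Of 16 genes tested for TBK1, IKK-epsilon and their adaptors, 0 passed the test in either direction, with a median log2 fold change of 0.15 beside 0.02 over all genes. Tbk1 measured 41.9, 40.6 and 44.9 CPM in Tat-Cocaine and 42.8, 39.7 and 43.7 CPM with amlexanox (log2 fold change −0.01, limma FDR 0.936, 95% interval −0.15 to 0.13). Ikbke measured 13.3, 21.5 and 30.03 CPM against 18.2, 18.0 and 13.6 CPM (−0.31, limma FDR 0.505), Irf3 had a log2 fold change of −0.15, the autophagy receptor Optn of 0.38 and the adaptor Traf3 of 0.29. Of this list 1 gene was called on omitting Tat-Cocaine replicate 3, namely Optn, higher with amlexanox (0.63, limma FDR 0.00584). Of 42 interferon-stimulated genes 0 were called and the median was −0.02. Cxcl10, an interferon-induced chemokine, measured 66.0, 133 and 23.3 CPM in Tat-Cocaine and 22.6, 30.3 and 17.4 CPM with amlexanox, overlapping groups with a log2 fold change of −1.35 (limma FDR 0.457). The ubiquitin-like modifier Isg15 (−0.47), Ifit3 (−0.36), the factor Irf7 (−0.05), Gbp2 (−0.52) and Ifi27 (0.08) had limma FDRs of 0.661 to 0.971.

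Of 44 cytokine and chemokine genes 1 was called, the fall of Ccl19 described above, and the median was −0.28. The highest expressed were Ccl2 and Ccl7, ligands that attract monocytes, with log2 fold changes of −0.42 and −0.55 (limma FDR 0.748 and 0.630). The chemokine Ccl20 measured 38.6, 172 and 156 CPM in Tat-Cocaine and 62.8, 81.6 and 42.8 CPM with amlexanox (−0.74, limma FDR 0.467). Interleukin genes Il1a (0.10), Il1b (0.50) and Il6 (1.04) and the chemokine Ccl3 (0.39) did not pass either, with limma FDRs of 0.287 to 0.909. Tnf was at 0.0819 CPM or less in all 6 libraries. Nos2, the inducible nitric oxide synthase, measured 0.341, 0.655 and 0.161 CPM in Tat-Cocaine and 0, 0.0816 and 0 CPM with amlexanox, without overlap. Both genes reached 0.5 CPM in fewer than 3 libraries of the series and were not tested. Of 28 genes for NF-kB subunits, inhibitors and targets 0 were called (median 0.04). Acod1, which makes itaconate, measured 1.66, 10.8 and 28.99 CPM in Tat-Cocaine and 5.88, 21.9 and 5.74 CPM with amlexanox (0.10, limma FDR 0.958), so that its libraries spread more within than between groups. The feedback inhibitors Nfkbia (−0.14) and Tnfaip3 (−0.39), the iron-binding secreted protein Lcn2 (0.54) and complement factor Cfb (0.44) had limma FDRs of 0.634 to 0.832.

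Of 20 complement genes 0 were called (median 0.21). C3, the central component, measured 2626, 2206 and 6424 CPM in Tat-Cocaine and 7078, 7399 and 7542 CPM with amlexanox, a log2 fold change of 1.14 (limma FDR 0.190) in groups that did not overlap, and of 1.61 (limma FDR 0.0360) without Tat-Cocaine replicate 3. The C1 inhibitor gene Serping1 had 0.24. Of 28 antigen presentation genes 0 were called and 13 were lower without overlap between groups (11.1% of all genes tested were), with a median of −0.26. Their leading genes were B2m (0.06) and the class I gene RT1-A2 (−0.26), and the class II chain gene Cd74 had 0.00. RT1 genes resemble each other, and reads may be split between them. Without Tat-Cocaine replicate 3, 3 antigen presentation genes were called lower and 4 complement genes higher. Of 15889 genes tested in that fit, 525 were called lower and 792 higher.

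Of 20 phosphodiesterase genes 0 were called (median −0.14). Without overlap between groups 6 were lower and 2 higher, beside 11.1% and 11% of all genes tested. The 20 genes summed to 514 to 588 CPM in Tat-Cocaine and 397 to 458 CPM with amlexanox. Pde2a measured 180, 166 and 129 CPM in Tat-Cocaine and 66.5, 88.1 and 91.5 CPM with amlexanox (−0.94, limma FDR 0.102), without overlap. Leaving out Tat-Cocaine replicate 3, 1 phosphodiesterase gene was called higher and 1 lower, the latter Pde2a (−1.08, limma FDR 0.0396). Pde4b, a main cyclic AMP phosphodiesterase of inflammatory cells, had −0.45 (limma FDR 0.342). Of 30 CREB and activity-regulated genes, which cyclic AMP can raise, 1 was called. It was the AP-1 subunit Jun, lower with amlexanox, from 245, 237 and 201 CPM to 167, 181 and 167 CPM (−0.40, SE 0.09, limma FDR 0.0371). Fos, its partner, had −0.06, and the neuropeptide genes Sst and Scg2 had −0.25 and 0.05. Of 10 S100 genes 0 were called (median 0.45). S100a13 measured 39.4, 24.9 and 41.2 CPM in Tat-Cocaine and 88.5, 42.3 and 69.8 CPM with amlexanox, apart by a narrow margin (0.89, limma FDR 0.225). S100b had 1.13 (limma FDR 0.168) and S100a16 0.40. When Tat-Cocaine replicate 3 was left out, 1 S100 gene was called higher, S100b (1.47, limma FDR 0.0463), and 1 lower. Beside these S100 and phosphodiesterase calls, 792 of 15889 genes tested were called higher and 525 lower in that setting.

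Of 9 genes tested for the aryl hydrocarbon receptor, Cyp1a1 was the 1 called (median 0.12). Cyp1b1, another P450 target gene, measured 55.8, 101 and 167 CPM in Tat-Cocaine and 230, 244 and 223 CPM with amlexanox, a log2 fold change of 1.24 that missed the threshold (SE 0.36, limma FDR 0.0786). The groups of Cyp1b1 did not overlap, and without Tat-Cocaine replicate 3 it passed (1.62, limma FDR 0.0112). The other members had log2 fold changes of −0.49 to 0.72, among them the receptor gene Ahr with −0.49 (limma FDR 0.359) and its repressor Ahrr with 0.72 (limma FDR 0.186), and the redox factor Nfe2l2 had 0.04. Of 23 Nrf2 targets 0 were called (median −0.04), with Nqo1 at −0.19, Fth1 at −0.09 and Tkt at −0.15.

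Stress and growth lists held few or no calls. Of 20 ATF4 targets (median −0.11, Slc3a2 −0.08, Atf4 0.06), 22 cholesterol synthesis genes (median −0.11, Hmgcs1 −0.33, Cyp51 0.00) and 14 heat shock genes (median 0.01, Hsp90ab1 −0.04, Hspa8 0.14), 0 were called. Of 27 autophagy and lysosome genes 1 was called, Atg5, which acts in the conjugation step of autophagosome formation. Atg5 measured 34.6, 33.4 and 37.9 CPM in Tat-Cocaine and 46.03, 38.98 and 44.2 CPM with amlexanox (0.28, SE 0.07, limma FDR 0.0442), while the cathepsins Ctsb and Ctsd had −0.07 and 0.19. Of 28 cell cycle genes 0 were called, 26 had a positive log2 fold change and the median was 0.40, with Ccnd1 at 0.00 and Pcna at 0.15. Of 27 collagen and matrix genes 1 was called, tenascin-C, an adhesion-modulating glycoprotein of the matrix. Tnc measured 163, 276 and 122 CPM in Tat-Cocaine and 63.6, 89.8 and 60.9 CPM with amlexanox (−1.32, SE 0.30, limma FDR 0.0307). The list had a median of −0.28, with Sparc at 0.03 and Timp2 at 0.22. Without Tat-Cocaine replicate 3, 2 cytokine genes were called higher and 2 lower, 3 autophagy and lysosome genes higher, 2 aryl hydrocarbon receptor genes higher and 2 matrix genes lower. In that setting 1 CREB, 1 Nrf2 and 1 ATF4 gene were called lower, 1 heat shock gene higher and 1 lower, and 1 cell cycle gene higher. The calls among interferon-stimulated, NF-kB and cholesterol synthesis genes were 0. Of all 15889 genes tested without that library, 792 were called higher and 525 lower.

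**Figure D5:**
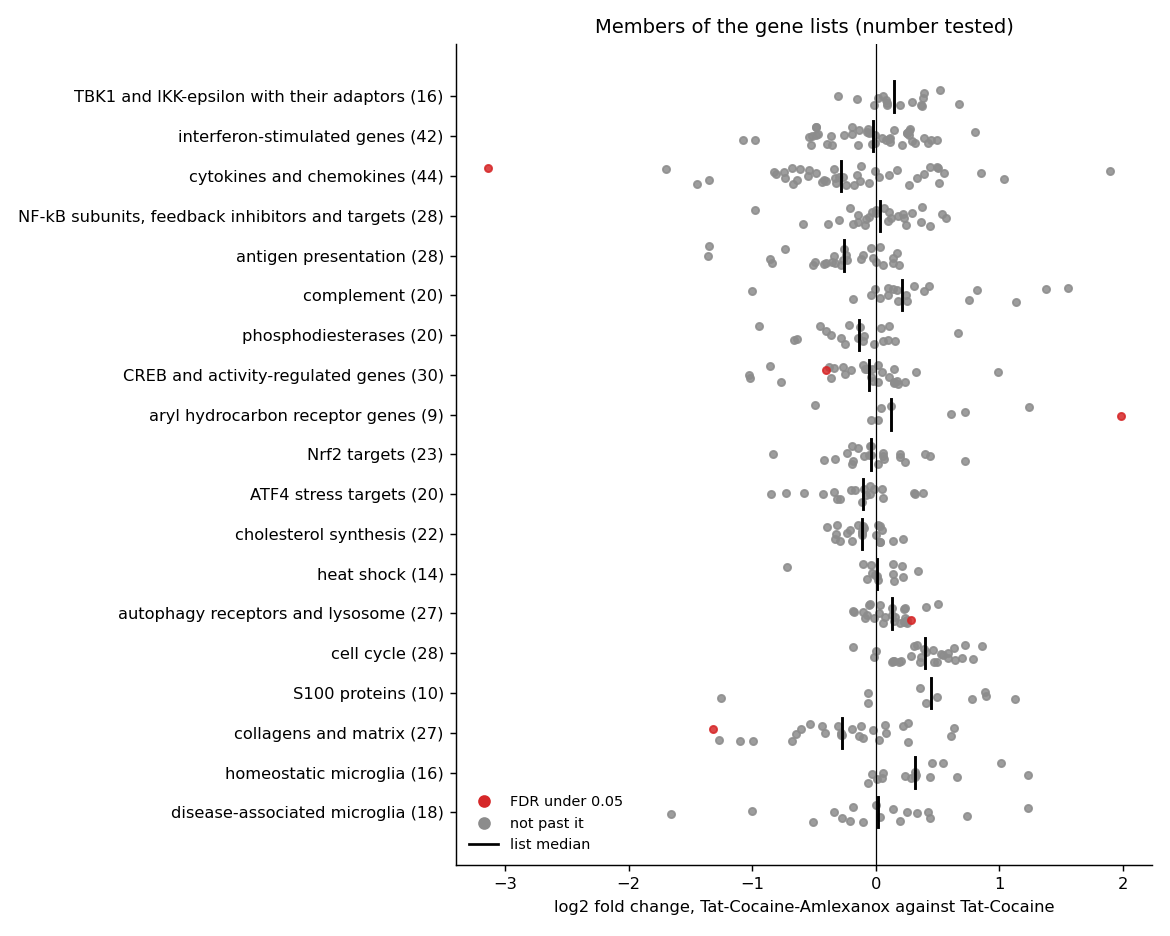
Log2 fold changes with amlexanox in Tat-Cocaine cultures (x axis) for the members of the 19 gene lists, with the number tested in parentheses, list medians as black bars and genes past an FDR of 0.05 in red. The red points are Ccl19, Jun, Cyp1a1, Atg5 and Tnc, and the medians lie between −0.28 and 0.45.

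The markers of cell types were summed in each library beside these results. In bulk cultures fewer cells of a type and less RNA per cell cannot be told apart. The 15 myeloid markers summed to 2692, 1930 and 4766 CPM in Tat-Cocaine and 4536, 5515 and 4026 CPM with amlexanox, so that Tat-Cocaine replicate 3 lay within the range of the libraries with amlexanox. Of the 15 markers 0 were called and 13 had a positive log2 fold change. The 10 border macrophage markers summed to 348 to 927 CPM against 856 to 942 CPM, with 0 calls. Of them 7 had positive and 3 negative log2 fold changes (median 0.44, lowest −1.51). Homeostatic microglia genes (16 tested, median 0.32, Csf1r 0.44) and disease-associated microglia genes (18 tested, median 0.02, Apoe 0.33) held 0 calls, and P2ry12 and Aif1 had log2 fold changes of 0.55 and 0.49 (limma FDR 0.636 and 0.685). On omitting Tat-Cocaine replicate 3, 3 myeloid and 3 border macrophage markers and 1 homeostatic microglia gene were called higher, and of the disease-associated microglia genes 2 higher and 1 lower. Over all 15889 genes tested in that setting, 792 were called higher and 525 lower. The part of the marker sums in the values of the complement genes was not tested.

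The 20 neuron markers summed to 3954, 3736 and 3060 CPM in Tat-Cocaine and 2461, 2731 and 3524 CPM with amlexanox, with 0 calls, 18 negative log2 fold changes and a median of −0.29. Map2 itself had −0.07 (limma FDR 0.882). These sums overlap, and their part in the falls of Nptx1, Islr2, Cntn2 and Cbln1 was not tested. The 10 oligodendrocyte markers summed to 2347, 944 and 542 CPM in Tat-Cocaine and 500, 352 and 773 CPM with amlexanox, all with negative log2 fold changes (median −1.01) and 0 calls. The 12 astrocyte markers summed to 9221 to 11210 CPM against 11470 to 13160 CPM, and Gfap had 0.55 (limma FDR 0.259). Of these markers 0 were called, and 7 had positive and 5 negative log2 fold changes (median 0.06, lowest −0.99). The 10 markers of fibroblasts and pericytes summed to 459 to 611 CPM against 319 to 445 CPM (median −0.54), with 0 calls. Of them 5 were lower without overlap between groups, beside 11.1% of all genes tested. Markers of oligodendrocyte precursors summed to 628 to 804 against 544 to 659 CPM. Markers of ependymal cells summed to 117 to 236 against 216 to 303 CPM, of mast cells to 26.3 to 26.9 against 28.98 to 41.1 CPM, and of T cells to 38.1 to 150 against 145 to 167 CPM. Only 2 mast cell and 2 T cell markers passed the filter on low values. The 2 T cell markers had log2 fold changes of −0.155 and 1.02, and neither sum can stand for its cell type. Markers of endothelial cells were near 0, at 5.20 to 8.62 against 4.22 to 6.401 CPM. On omitting Tat-Cocaine replicate 3, 3 fibroblast and pericyte markers and 1 precursor marker were called lower. In that setting 1 astrocyte and 1 T cell marker were called higher, and 0 neuron or oligodendrocyte markers were called. Over all 15889 genes tested there, 792 were called higher and 525 lower.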

How the data were processed

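Per the labels, RNA of each culture was made into stranded polyA libraries with the NEBNext Ultra II Directional kit, trimmed with Trim Galore 0.4.5, aligned with STAR 2.7.2 and counted per gene with featureCounts of Subread 1.5.3. The signal the authors deposited is CPM after TMM scaling (sums of 930400 to 1046900 per library), in 30211 genes, and 84.3 to 87.3% of values above 0 were whole reads within 0.02 read, so that no count test was run. The authors' columns of group means and of their own comparisons (fold changes and p-values) were not used. Coordinates of genes in the build of the alignment are not given, because the sources name different rat builds. The promoter regions shown are placed on the RefSeq build GRCr8 instead. A single limma 3.58.1 model (lmFit, then eBayes with trend, 2-sided, R 4.3.3) of log2(CPM + 0.5) covered the 48 libraries of 16 groups, without covariates. It tested the 15890 genes that reached 0.5 CPM in 3 or more libraries, and a gene was called at a Benjamini-Hochberg FDR below 0.05. A fold change on this scale understates the change of genes with low values. With 3 libraries a group, the smallest exact permutation p is 0.1 (two-sided). Replicate libraries of the 6 groups with and without amlexanox all differed by more than sampling noise (chi-square per degree of freedom of 11.1 or more). The scripts were tested on simulated data.

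Genes were named by rule: the 12 largest rises and 12 largest falls among called genes with a mean of at least 1 CPM in the higher group and no overlap between groups, called members of 30 gene and marker lists (where fewer than 2, also the 2 with the highest mean, for gene lists), the genes known for amlexanox and inflammation, and up to 5 genes per direction in each interaction. Members and lists were chosen with earlier results of these data known. The alternatives changed the pseudocount, the low-value filter or the scaling, or used the groups of a contrast alone, no trend, library quality weights, a replicate block, each library left out and, added after seeing the data, a fit to the 6 groups with and without amlexanox. A gene that the rule named is not reported here.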

Additional observations from a re-analysis of the deposited data

Results flagged for a closer look

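The effect of amlexanox differed between Tat-Cocaine and untreated cultures in 1481 genes by the limma interaction contrast, and each of the following genes passed that test. Differences are the log2 effect in Tat-Cocaine minus that in Control cultures. Of 95 named genes, 30 passed, 14 with a higher and 16 with a lower effect in Tat-Cocaine cultures, beside 9.32% of all genes tested. Of the 95, 10 were named because their differences in this contrast were the largest, so that their passing follows from the choice. Others were named as the largest called rises and falls with amlexanox in Tat-Cocaine cultures, an effect that is part of this contrast. Their passing was favoured by that choice. Among the genes that passed, only S100b, S100a16, Sparc and Fos were named by neither of these rules. The share of named genes that passed is therefore no evidence of an excess over all genes tested. The higher ones were LOC24906 (2.14), H1f6 (1.06), Dipk2a (1.17), Cyp39a1 (1.76), Plekhg6 (0.87), AABR07058124.4 (1.604), S100b (2.46), S100a16 (0.85), Sparc (0.93), Ccno (4.15), Bbox1 (3.94), Sult1a1 (3.74), Ltbp2 (3.51) and Dnah6 (3.47). The lower ones were Ccl19 (−4.06), Nptx1 (−2.74), AABR07068316.1 (−2.02), Gzmm (−2.12), Otof (−2.43), Islr2 (−2.66), Alpl (−2.61), Ptgir (−2.69), Cntn2 (−1.69), Msln (−2.10), Cbln1 (−2.32), Fos (−1.10), the locus listed as Mir675 (−5.99), Dcn (−3.30), Mgp (−3.11) and Lum (−2.93). Groups of 3 libraries are too small for a test of single outlying values.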

How the results depend on the processing

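Adding amlexanox to Tat and cocaine gave 91 called genes with a pseudocount of 0.1, 0 with the groups of the contrast alone, 4293 with library quality weights (whose fitting stopped before convergence), 338 with the replicate number as a block and 2 in the fit to 6 groups, which was added after seeing the data. With a library left out it gave 5 to 1317. The difference from Tat cultures gave 2 without the low-value filter (Lgals2 and LOC100360619), 6 with weights (Nptx1, at −2.11 with a limma FDR of 0.0101, Otof, Has1, Gucy2g, Fsd1l and Zfp667) and 0 to 1 with a library left out. The difference from untreated cultures gave 0 alone, 5651 with weights, 612 in the 6-group fit and 36 to 2946 with a library left out. Amlexanox in Tat cultures gave 0 alone, 211 with weights, 493 with the block, 0 in the 6-group fit and 0 to 178 with a library left out. Amlexanox alone gave 0 in its own groups, 3645 with weights, 995 in the 6-group fit and 160 to 3003 with a library left out. Tat-Cocaine against Control gave 619 in its own groups. The cause of these shifts was not tested. Deviations of same-numbered Tat-Cocaine and Tat-Cocaine-Amlexanox libraries correlated at −0.113, 0.0445 and −0.33, and the pairing is not used in the main fit. The highest correlation, 0.419, was that of Tat-Cocaine replicate 1 with Tat-Cocaine-Amlexanox replicate 3. Whether libraries of different groups share a dissection or batch, by number or in another order, was not tested.

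Genes whose log2 fold change turned sign were not called. After median ratio scaling these were Cyp51 (−0.01175), Ccnd1 (−0.01367) and Cd74 (−0.01259), after quantile normalization B2m (−0.2196), Serping1 (−0.0325), Cyp51 (−0.01882), Ccnd1 (−0.02205), Sparc (−0.1702) and Cd74 (−0.0111), and with weights B2m (−0.008591), Ctsb (0.02261), Ccnd1 (−0.007945), Tbk1 (0.01867), Il1a (−0.01296), Fos (0.1165) and Ltbp2 (0.05041). With a library left out the ranges were −0.02611 to 0.1489 for B2m, −0.06358 to 0.5006 for Serping1, −0.08209 to 0.2235 for Scg2, −0.03567 to 0.1338 for Nfe2l2, −0.2056 to 0.03715 for Slc3a2, −0.02694 to 0.1521 for Atf4, −0.0574 to 0.06213 for Cyp51, −0.1001 to 0.0233 for Hsp90ab1, −0.07201 to 0.0434 for Ccnd1, −0.04368 to 0.02809 for Tbk1, −0.196 to 0.04396 for Irf7, −0.7906 to 0.1282 for Ifit3, −0.4692 to 0.4336 for Il1a, −0.2854 to 0.856 for Ccl3, −0.9242 to 0.9611 for Acod1, −0.4527 to 0.03957 for Nfkbia, −0.3549 to 0.2555 for Cd74, −0.2285 to 0.216 for Fos and −0.2553 to 0.1883 for Ltbp2. Of 330 comparisons of list medians under the 11 alternatives other than left-out libraries, 2 moved by more than 1 standard error, mast cells and T cells without the low-value filter. Without Tat-Cocaine replicate 3 the cell cycle median was 0.671 in place of 0.398 and the NF-kB median 0.223 in place of 0.0359.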
